A study of Mus musculus with 12 samples.

Results

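The lipoprotein lipase system was followed on microarrays of mouse adipose tissue through 5 genes, Lpl, Gpihbp1, Angptl4, Lmf1 and Apoe. Every probe whose transcript identifier belonged to one of these genes was taken, which gave 7 probes for 5 of the 20660 genes that could be named on the array. Lpl and Lmf1 had 2 probes each and the other genes had 1. All 7 probes were called well above background by the scanner software on all 12 arrays, so none was lost to the filter on dim signal.

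Lipoprotein lipase, the product of Lpl, splits the triglyceride carried by chylomicrons and very-low-density lipoproteins, and adipocytes make and secrete it in both white and brown fat. The enzyme is folded in the endoplasmic reticulum with the help of lipase maturation factor 1 (Lmf1), and GPIHBP1, a protein of capillary endothelial cells, carries it to the vessel lumen and holds it there. Angiopoietin-like 4 (Angptl4) inactivates the enzyme, and apolipoprotein E (Apoe) is a ligand through which cell-surface receptors take up the remaining particles. LR11, also known as SorLA and encoded by Sorl1, is a member of the VPS10p sorting receptors.

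The arrays held RNA of subcutaneous white adipose tissue (scWAT) and brown adipose tissue (BAT) from WT mice and from Lr11 -/- mice, which lack LR11 in all tissues. Each of the 4 combinations of genotype and tissue had 3 arrays. The mice of all groups were C57Bl6/J males aged 12 weeks on a high-fat diet (HFD) with 60% of calories from fat, and the WT mice were littermates. The labels name both 4 weeks of HFD and a start at weaning, so the length of the diet is unclear, and no source used here says whether scWAT and BAT came from the same mice or whether an array held RNA of 1 mouse or a pool. P values therefore measure the spread between these arrays only. Levels are log2 intensities relative to the 75th percentile of the array, so that 0 is as bright as that percentile. They compare arrays for the same probe, not one gene with another. In whole tissue, fewer cells of a type and less RNA per cell cannot be told apart.

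Each group held 1 array of the first array series, named replicate 1, and 2 of the second, named replicates 2 and 3. Sorl1 lay between 0.11 and 1.21 on the WT arrays and between -3.93 and -2.45 on the Lr11 -/- arrays, which fits every genotype label, although the place of the probe relative to the deleted part is not given in the sources used here. Hoxc9, a homeobox gene of subcutaneous white fat, was well above background on all 6 scWAT arrays and on 0 of the 6 BAT arrays. Ucp1, the uncoupling protein of brown fat, lay between 9.45 and 10.07 on the BAT arrays, but also reached 9.75 and 10.05 on Lr11 -/- scWAT replicates 2 and 3. WT scWAT replicate 2 stood apart, with Adipoq, which encodes the adipocyte hormone adiponectin, at 3.84 against at least 6.61 on the other arrays. Acta1, the actin of skeletal muscle, exceeded 6 on 5 arrays, WT scWAT replicate 3, Lr11 -/- scWAT replicate 1, WT BAT replicates 1 and 3 and Lr11 -/- BAT replicate 1, and was at most 1.46 on the other 7. Lr11 -/- scWAT replicate 1 also stood apart in epithelium, with all 6 markers of that list well above background and a summed level of 5.42, against 3.08 on WT scWAT replicate 3 and at most -0.25 on the other arrays.

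**Figure D1:**
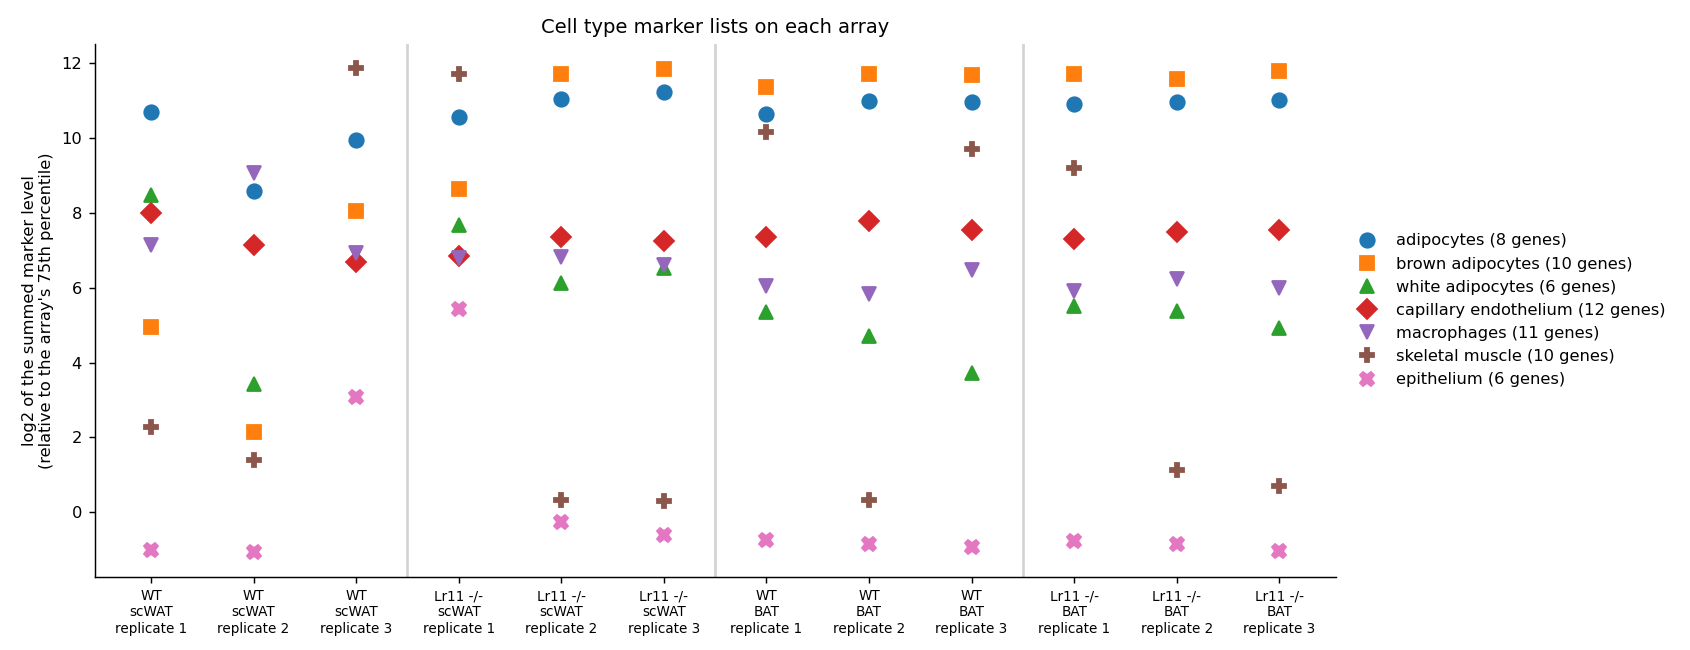
Summed level of the measured genes of 7 marker lists on each of the 12 arrays (log2, relative to the 75th percentile of the array), 1 point per list and array. The brown adipocyte list spans 2.16 to 8.05 in WT scWAT and reaches 11.71 and 11.83 on Lr11 -/- scWAT replicates 2 and 3, and the skeletal muscle list is high on 5 arrays.

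Whether loss of LR11 changed expression of the lipase system was asked separately in scWAT and in BAT. In scWAT, 0 of the 5 genes passed the threshold with all 12 arrays (limma, Benjamini-Hochberg adjusted p under 0.05 over 32120 tested probes, of which 5.27% were called). An unadjusted p under 0.05 was found for 2 of the 5, Lmf1 and Apoe, and for 8865 of the 32120 probes. The mean was higher in Lr11 -/- scWAT for Lpl, Gpihbp1, Angptl4 and Lmf1 and lower for Apoe, with a median difference of 0.61 against 0.04 over all tested probes. The 3 Lr11 -/- arrays lay entirely above the 3 WT arrays for Lmf1 alone, where 20.4% of all tested probes had groups that did not overlap. In BAT, 0 of the 5 genes were called, next to 0.0187% of all probes, and 0 had an unadjusted p under 0.05, next to 680 of the 32120 probes. Lpl was the one gene of the 5 whose BAT arrays did not overlap between genotypes, next to 12% of all probes. The genotype difference in scWAT minus that in BAT was called for 0 of the 5 genes and for 0% of all probes. Its unadjusted p was under 0.05 for 1 gene of the 5, Lmf1, and for 3537 of the 32120 probes.

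How the tissues differed was asked within each genotype with the same arrays, so the tissue and genotype comparisons share their samples. In WT mice Lmf1 was higher in BAT than in scWAT and the other 4 genes did not pass the threshold, where 24.8% of all probes were called. Its groups did not overlap, as for 40.2% of all probes. In Lr11 -/- mice 0 of the 5 genes were called, against 0.0405% of all probes. The unadjusted p was under 0.05 for 2890 of the 32120 probes and for 1 gene of the 5, again Lmf1. The Lmf1 groups did not overlap in that genotype either, as was the case for 23.2% of all probes.

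**Figure D2:**
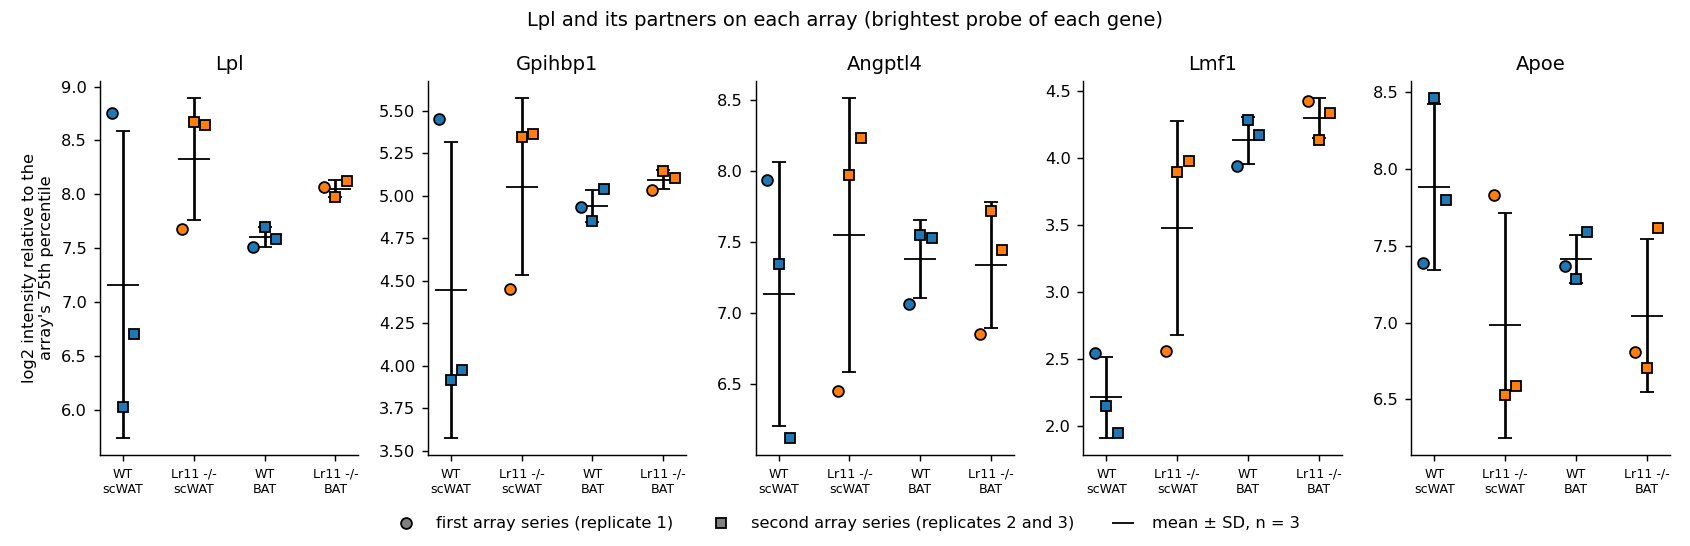
Level of the brightest probe of each gene on every array (log2 intensity relative to the 75th percentile of the array), with circles for the first array series, squares for the second and bars for mean ± SD over 3 arrays. In scWAT the first-series circle of Lpl and of Gpihbp1 lies above the squares in WT and below them in Lr11 -/- mice, that of Apoe the other way round, and Lmf1 is lowest in WT scWAT.

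Lpl, which encodes the lipase itself, read 8.76, 6.02 and 6.70 on WT scWAT replicates 1 to 3 and 7.68, 8.67 and 8.64 on Lr11 -/- scWAT replicates 1 to 3. The highest of all 12 values was thus WT scWAT replicate 1 and the lowest WT scWAT replicate 2, and the genotypes overlapped. In BAT it read 7.51, 7.70 and 7.59 in WT and 8.07, 7.97 and 8.12 in Lr11 -/- mice, so that every Lr11 -/- array lay above every WT array. Group means fell in the order Lr11 -/- scWAT (8.33 ± 0.56, SD, n = 3), Lr11 -/- BAT (8.05 ± 0.08), WT BAT (7.60 ± 0.09) and WT scWAT (7.16 ± 1.42). None of the neighbours in this order differed past the threshold.

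The difference between genotypes for Lpl was 1.17 in scWAT (SE 0.57, 95% interval -0.08 to 2.42, limma adjusted p = 0.208) and 0.45 in BAT (SE 0.57, interval -0.80 to 1.70, adjusted p = 1). The interval in BAT is wide because all groups share 1 estimate of the spread, which in scWAT was far larger. In a fit of the BAT arrays alone the Lpl difference did not pass the threshold either (limma adjusted p = 0.535). BAT minus scWAT was 0.44 in WT (adjusted p = 0.591) and -0.28 in Lr11 -/- mice (adjusted p = 0.898). The second Lpl probe gave 1.13 in scWAT and 0.53 in BAT for Lr11 -/- minus WT, also without overlap in BAT. The sign in scWAT turned with the array series. The Lr11 -/- array was 1.08 lower than the WT array in the first series (a difference of -1.08), and the second series gave 2.29 with 2 arrays per genotype. Single arrays also moved it, to 1.97 without WT scWAT replicate 1 (limma adjusted p = 0.0169) and to 0.60 without WT scWAT replicate 2 (adjusted p = 0.547).

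WT scWAT replicate 2, the array with the lowest Lpl, had a summed level of the 8 adipocyte markers of 8.59, against 9.94 to 11.22 on the other arrays, and a macrophage sum of 9.07 against at most 7.14. Over the groups the adipocyte sum was 8.59 to 10.71 in WT scWAT, 10.57 to 11.22 in Lr11 -/- scWAT and 10.65 to 11.02 in BAT. The part of these markers in the Lpl values was not tested.

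Gpihbp1, the endothelial partner, read 5.45, 3.91 and 3.97 on WT scWAT replicates 1 to 3 and 4.45, 5.35 and 5.36 on the Lr11 -/- scWAT arrays. As for Lpl, the first-series array was the highest of WT scWAT and the lowest of Lr11 -/- scWAT, and the genotypes overlapped. In BAT it read 4.93, 4.85 and 5.04 in WT and 5.04, 5.14 and 5.10 in Lr11 -/- mice, a narrow range in which the groups met at 5.04. Means were 5.10 ± 0.06 in Lr11 -/- BAT, 5.05 ± 0.52 in Lr11 -/- scWAT, 4.94 ± 0.09 in WT BAT and 4.45 ± 0.87 in WT scWAT (SD, n = 3 each), and each group overlapped with the next in this order.

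Lr11 -/- minus WT for Gpihbp1 was 0.61 in scWAT (SE 0.39, interval -0.26 to 1.48, limma adjusted p = 0.342) and 0.16 in BAT (interval -0.71 to 1.02, adjusted p = 1). The tissues differed by 0.49 in WT (BAT minus scWAT, adjusted p = 0.373) and by 0.04 in Lr11 -/- mice (adjusted p = 0.98). In scWAT the genotype difference was -1.0 in the first series and 1.41 in the second. It was 1.11 without WT scWAT replicate 1 (limma adjusted p = 0.0342), 0.34 without WT scWAT replicate 2 (adjusted p = 0.686) and 0.37 without WT scWAT replicate 3 (adjusted p = 0.586). The 12 markers of capillary endothelium, the cells that make GPIHBP1, were well above background on all 12 arrays, with sums of 6.68 to 7.98 in WT scWAT, 6.84 to 7.36 in Lr11 -/- scWAT and 7.30 to 7.78 in BAT. Of these 12 markers 0 passed the threshold between genotypes in either tissue and 2 were higher in BAT than in scWAT of WT mice, where 24.8% of all probes were called. Their part in the Gpihbp1 values was not tested.

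Angptl4, the inhibitor, read 7.93, 7.34 and 6.12 on WT scWAT replicates 1 to 3 and 6.45, 7.97 and 8.23 on the Lr11 -/- scWAT arrays. In BAT the values were 7.06, 7.55 and 7.53 for WT and 6.85, 7.72 and 7.44 for Lr11 -/- mice. All 4 groups overlapped, and each scWAT group spanned most of the range of the gene.

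Means of Angptl4 were 7.55 ± 0.96 in Lr11 -/- scWAT, 7.38 ± 0.27 in WT BAT, 7.34 ± 0.44 in Lr11 -/- BAT and 7.13 ± 0.93 in WT scWAT (SD, n = 3 each). Lr11 -/- minus WT was 0.42 in scWAT (interval -0.76 to 1.59, limma adjusted p = 0.643) and -0.04 in BAT (interval -1.22 to 1.13, adjusted p = 1). BAT minus scWAT was 0.25 in WT (adjusted p = 0.759) and -0.21 in Lr11 -/- mice (adjusted p = 0.919). The scWAT difference was -1.49 in the first series and 1.37 in the second, and it had no stable sign when single arrays were left out (-0.09 to 0.97).

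Lmf1, the factor that lipases need for folding, was the one gene of the 5 past the threshold in any comparison with all arrays. On WT scWAT replicates 1 to 3 it read 2.54, 2.15 and 1.95, and on Lr11 -/- scWAT replicates 1 to 3 it read 2.56, 3.89 and 3.98. In BAT it read 3.94, 4.28 and 4.17 in WT and 4.43, 4.13 and 4.33 in Lr11 -/- mice. The WT scWAT arrays were the 3 lowest, Lr11 -/- scWAT replicate 1 lay next to them, and the other Lr11 -/- scWAT arrays reached the lower edge of BAT. Means fell in the order Lr11 -/- BAT (4.30 ± 0.15, SD, n = 3), WT BAT (4.13 ± 0.18), Lr11 -/- scWAT (3.48 ± 0.80) and WT scWAT (2.21 ± 0.30). The BAT groups overlapped, and WT BAT overlapped with Lr11 -/- scWAT. The scWAT groups nearly met, at 2.54 in WT and 2.56 in Lr11 -/- mice, and their difference did not pass the threshold.

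In WT mice Lmf1 was 3.78-fold higher in BAT than in scWAT, from 2.21 ± 0.30 to 4.13 ± 0.18 (SD, n = 3), a log2 difference of 1.92 (SE 0.35, interval 1.15 to 2.69, limma adjusted p = 0.00589). The second Lmf1 probe gave 1.77 (SE 0.36, adjusted p = 0.00848), and it read -0.66, -1.26 and -1.53 in WT scWAT against 0.71, 0.89 and 0.26 in WT BAT, again with no overlap. The difference was 1.40 in the first array series and 2.18 in the second, and it remained past the threshold in each of the 12 fits that left out 1 array (1.79 to 2.08, limma adjusted p 0.000398 to 0.0301). The first-series scWAT and BAT arrays lay on different glass slides, and with the slide as a block the difference was 1.79 (limma adjusted p = 0.0311). In Lr11 -/- mice the same comparison gave 0.82 (SE 0.35, interval 0.05 to 1.59, limma adjusted p = 0.53). That value was 1.87 in the first series and 0.30 in the second, although the arrays of the tissues did not overlap for either probe.

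Between genotypes, Lmf1 differed in scWAT by 1.26 (3.48 ± 0.80 in Lr11 -/- against 2.21 ± 0.30 in WT), with SE 0.35, interval 0.49 to 2.04 and limma adjusted p = 0.0589. The Lr11 -/- and WT arrays of the first series were nearly level, with a difference of 0.01 (-0.15 for the second probe), and the second series gave 1.89. With single arrays left out it ranged from 1.01 to 1.72 and passed the threshold in 2 of 12 fits, those without replicate 1 of either genotype (limma adjusted p = 0.0414 without the WT and 0.00161 without the Lr11 -/- array). The second probe gave 1.18 (adjusted p = 0.0755), and its lowest Lr11 -/- array (-0.80) lay below the highest WT array (-0.66). In BAT the difference was 0.17 (interval -0.61 to 0.94, adjusted p = 1). The difference between both tissues in this contrast was 1.1 (SE 0.49, interval 0.0062 to 2.19, limma adjusted p = 0.453).

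The brown adipocyte marker sum was higher in BAT than in WT scWAT, as Lmf1 was. Over 10 genes it was 4.96, 2.16 and 8.05 on WT scWAT replicates 1 to 3, where Lmf1 read 2.54, 2.15 and 1.95. Within Lr11 -/- scWAT it was 8.64, 11.71 and 11.83 on replicates 1 to 3, where Lmf1 read 2.56, 3.89 and 3.98. It was 11.36 to 11.80 in BAT. Of these 10 markers 7 were higher in BAT than in scWAT of WT mice and 4 were higher in Lr11 -/- than in WT scWAT, where 24.8% and 5.27% of all probes were called in either direction. Their part in the Lmf1 values was not tested. Skeletal muscle markers were high on 1 WT scWAT array (replicate 3), 1 Lr11 -/- scWAT array (replicate 1) and 3 BAT arrays. The muscle sum was 11.86 and 11.72 on those scWAT arrays, and the part of muscle in their brown adipocyte sums was not tested. Without the 5 arrays with muscle markers, which leaves 1 WT BAT array, the Lmf1 difference between genotypes in scWAT was 1.59. The arrays left out include Lr11 -/- scWAT replicate 1, whose removal alone gave 1.72.

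Apoe was the gene with a lower mean in Lr11 -/- mice in both tissues. It read 7.39, 8.46 and 7.80 on WT scWAT replicates 1 to 3 and 7.83, 6.53 and 6.59 on the Lr11 -/- scWAT arrays, as the mean of 10 spots of the same probe. In BAT it read 7.37, 7.28 and 7.59 in WT and 6.81, 6.71 and 7.62 in Lr11 -/- mice. The highest value was WT scWAT replicate 2, the 2 lowest were Lr11 -/- scWAT replicates 2 and 3, and the genotypes overlapped in both tissues through 1 Lr11 -/- array each.

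Mean Apoe was 7.88 ± 0.54 in WT scWAT, 7.41 ± 0.16 in WT BAT, 7.04 ± 0.50 in Lr11 -/- BAT and 6.98 ± 0.73 in Lr11 -/- scWAT (SD, n = 3 each), and no neighbours in this order differed past the threshold. Lr11 -/- minus WT was -0.90 in scWAT (SE 0.40, interval -1.79 to -0.0089, limma adjusted p = 0.177) and -0.37 in BAT (interval -1.26 to 0.52, adjusted p = 1). In scWAT the first series gave 0.44 and the second -1.57. Lr11 -/- scWAT replicate 1 had the highest epithelium sum and, like WT scWAT replicate 3, a high muscle sum. Without Lr11 -/- scWAT replicate 1 the Apoe difference was -1.32 (limma adjusted p = 0.0293). It ranged up to -0.61 with other arrays left out, none of these past the threshold. The part of muscle and epithelium in the Apoe values was not tested.

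Macrophages, which also make apolipoprotein E, had a marker sum over 11 genes of 6.94 to 9.07 in WT scWAT, 6.61 to 6.82 in Lr11 -/- scWAT, 5.83 to 6.47 in WT BAT and 5.91 to 6.22 in Lr11 -/- BAT. The highest sum and the highest Apoe were on the same array, WT scWAT replicate 2. Of the 11 markers 0 passed the threshold between genotypes in either tissue, with a median difference of -0.84 in scWAT and -0.10 in BAT, and 5 were lower in BAT than in scWAT of WT mice (24.8% of all probes called). The part of macrophage RNA in the Apoe values was not tested.

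**Figure D3:**
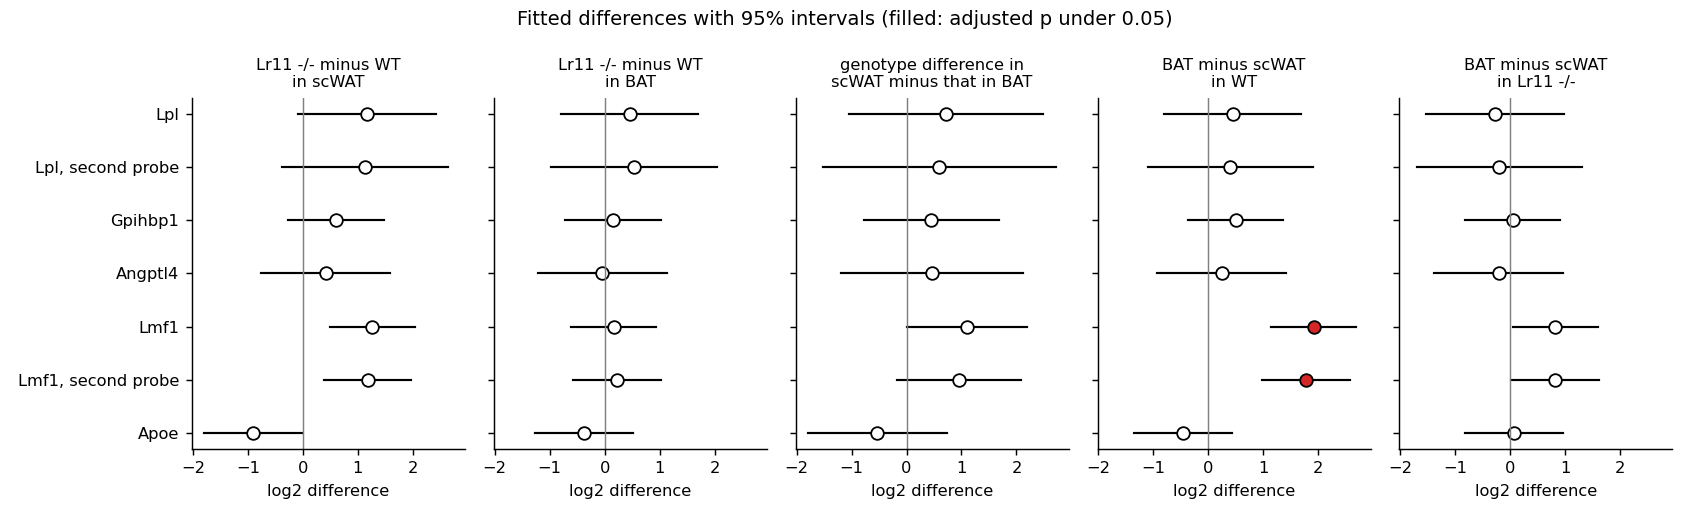
Fitted log2 difference of each of the 7 probes in the 5 comparisons, with 95% intervals from limma over 12 arrays and filled points for adjusted p under 0.05. Both Lmf1 probes are filled in BAT minus scWAT of WT mice (1.92 and 1.77) and no probe is filled elsewhere.

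The number of genes called in scWAT rested on the first-series arrays. Without WT scWAT replicate 1 the count of genes that differed between genotypes was 3 (Lpl, Gpihbp1 and Lmf1), next to 13.7% of all probes. Without Lr11 -/- scWAT replicate 1 it was 2 (Lmf1 and Apoe), next to 19.8% of all probes. In the second array series alone it was 4 (Lpl, Gpihbp1, Lmf1 and Apoe), next to 22.6% of all probes, whereas in the first series Lpl, Gpihbp1, Angptl4 and Apoe all pointed the other way. For BAT minus scWAT in WT mice the count was 3 without WT scWAT replicate 1 (31.8% of all probes), with Lpl at 1.24 (limma adjusted p = 0.0198) and Gpihbp1 at 1.0 (adjusted p = 0.0244) beside Lmf1. Without WT scWAT replicate 2 Lpl was at -0.13 in that comparison (limma adjusted p = 0.887) and Gpihbp1 at 0.23 (adjusted p = 0.738).

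**Figure D4:**
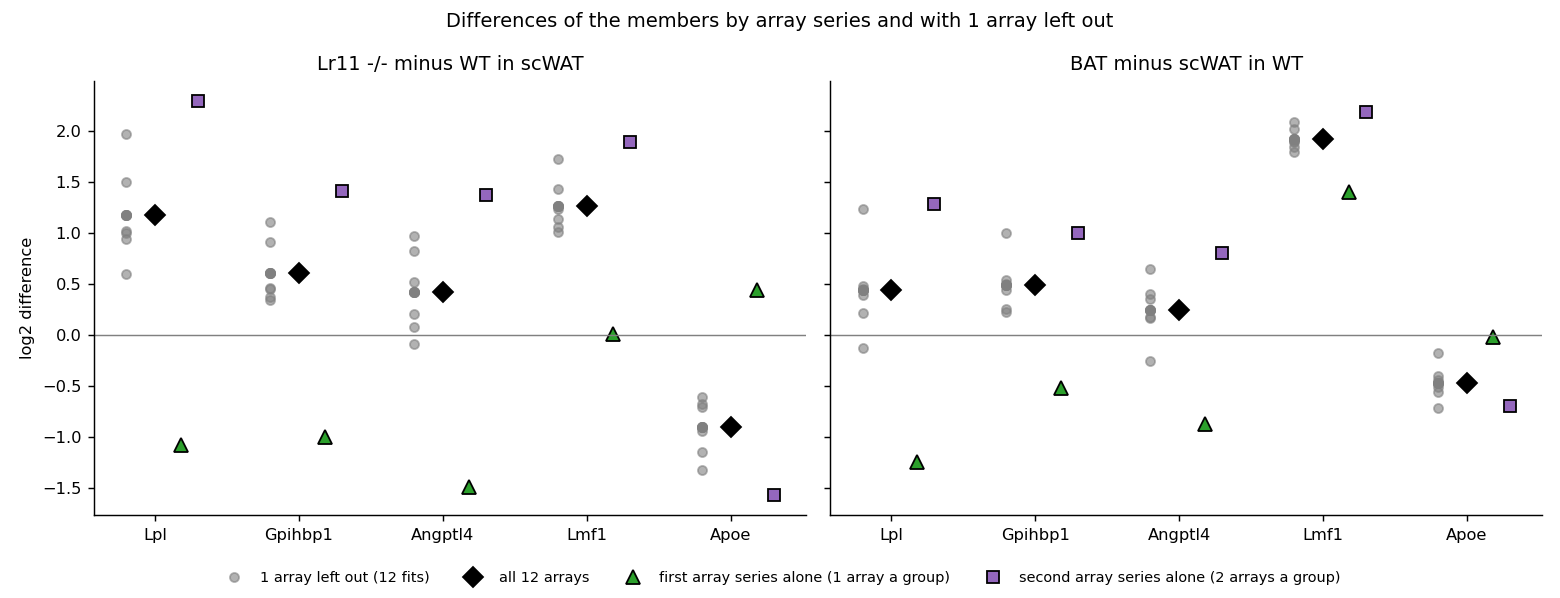
Log2 difference of the brightest probe of each gene for Lr11 -/- minus WT in scWAT (left) and BAT minus scWAT in WT (right), from all 12 arrays, with each array left out in turn and within each array series. In scWAT the first-series triangles lie below 0 for Lpl, Gpihbp1 and Angptl4 and above 0 for Apoe, opposite to the second-series squares, and Lmf1 stays above 0 in the right panel.

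Other genes of intravascular lipolysis were read from a list of 30, of which 29 could be named on the array and 27 could be tested. Apoc2 was matched to no probe identifier, which does not show that the array lacks it. Lipg and Lrp8 did not pass the filter on dim signal. In scWAT 1 of the 27 was higher and 1 was lower in Lr11 -/- mice, with a median difference of -0.19 against 0.04 over all probes, of which 5.27% were called. In BAT 0 were higher and 1, the deleted gene, was lower, with a median of 0.02 and 0.0187% of all probes called. There 3 of the 27 had an unadjusted p under 0.05, next to 680 of the 32120 probes. The difference between the tissues in this contrast was called for 0 of 27 and 0% of all probes. An unadjusted p under 0.05 was found for 3 of the 27 and for 3537 of the 32120 probes.

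The gene that was lower in both tissues was Sorl1, the deleted gene itself, at -4.34 in scWAT (SE 0.42, limma adjusted p = 0.0063) and -3.63 in BAT (SE 0.42, adjusted p = 0.0319). The call in scWAT remained in each of the 12 fits that left out an array and was lost in a fit of the scWAT arrays alone (limma adjusted p = 0.12), in which 0% of all probes were called. The call in BAT was lost in 11 of those 12 fits (adjusted p up to 0.229, differences -3.91 to -3.14), with the array series as a block (0.0624), with the slide as a block (0.0857) and in a fit of the BAT arrays alone (0.0953).

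Apoc3, which encodes an apolipoprotein that restrains lipoprotein lipase, was the gene that was higher in Lr11 -/- scWAT. It read 2.08, 2.43 and 2.69 on the Lr11 -/- scWAT arrays and -1.57, -4.93 and -0.41 on WT scWAT replicates 1 to 3, where replicate 2 was not well above background. In BAT it read 1.96, 2.18 and 1.92 in Lr11 -/- and -2.22, -1.67 and -1.93 in WT mice. Each of the 6 Lr11 -/- arrays thus lay above each of the 6 WT arrays, in a narrow band between 1.92 and 2.69. The genotypes did not overlap for 20.4% of all probes in scWAT and 12% in BAT, and the share over both tissues together was not computed.

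The difference of Apoc3 in scWAT was 4.70 (SE 0.86, limma adjusted p = 0.0297), or at least 23.2-fold with the dim array raised to its background limit. In BAT it was 3.96 (SE 0.86), with a limma adjusted p of 0.815 from the spread shared with scWAT and of 0.00644 from a fit of the BAT arrays alone. Without WT scWAT replicate 2 the BAT difference also passed (limma adjusted p = 0.00651). The scWAT call was lost in 8 of the 12 fits that left out an array (adjusted p up to 0.139, differences 3.39 to 5.65), in a fit of the scWAT arrays alone (limma adjusted p = 0.315) and with no filter on dim probes (0.06). Apoc3 and Sorl1 both lie on chromosome 9, with 70 other protein-coding genes between them in the GRCm38.p6 gene table. Whether this location has a part in the Apoc3 difference was not tested. Apoa5, an activator of the lipase encoded in the same cluster as Apoc3, lay between -4.47 and -3.69 on the 12 arrays, 2 of which did not show it well above background.

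Between the tissues of WT mice 2 of the 27 genes were higher in BAT, 5 were lower and 20 did not pass, with a median difference of -0.37 against 0.07 over all probes. The 7 called stand next to 24.8% of all probes, so their share was near that of the array as a whole. With the slide as a block 3 were called (Pcsk6, Apoc4 and Canx, next to 12.4% of all probes), in a fit of the WT arrays alone 3 (Pcsk6, Apoc1 and Sdc1, next to 12.2%) and without the 5 arrays with muscle markers 1 (Pcsk6, next to 7.35%). Pcsk6, a proprotein convertase of the family that cleaves lipases, was higher by 1.99 (SE 0.26, limma adjusted p = 0.00249) and remained past the threshold with any single array left out. Apoc1, an apolipoprotein encoded beside Apoe on chromosome 7, read 5.90, 2.95 and 4.98 in WT scWAT and 7.28, 7.89 and 7.79 in WT BAT. Its difference was 3.04 (SE 0.72, adjusted p = 0.0148, 0.0559 without WT BAT replicate 2 and 0.0578 with the slide as a block). Apoe itself, its neighbour, differed by -0.47 in the same comparison.

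Among the genes lower in BAT of WT mice, Apoc4 of the same chromosome 7 cluster read -0.63, -3.79 and -3.15 in scWAT and was not well above background on any BAT array, a difference of at least 4.33-fold (limma adjusted p = 0.0134). The call was lost in a fit of the WT arrays alone (limma adjusted p = 0.0557), and with normexp background correction, where the log2 difference was -0.95 in place of -3.03 (adjusted p = 0.0908). Sdc1, a heparan sulfate proteoglycan that binds lipoproteins, differed by -3.72 (adjusted p = 0.0126, 0.0508 without WT BAT replicate 2 and 0.056 with the slide as a block). Abcg1, a cholesterol exporter, differed by -1.59 (limma adjusted p = 0.0203, 0.0565 with the slide as a block, 0.0899 in the WT arrays alone, and 0.0742 and 0.0513 without WT BAT replicates 1 and 3), and by -1.03 without WT scWAT replicate 2 (adjusted p = 0.0274). Sdc1 and Abcg1 were both highest on WT scWAT replicate 2, at 2.80 and 3.82, the array with the high macrophage sum, and the part of those cells was not tested.

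Canx, which encodes the chaperone calnexin, and Hspg2, which encodes the proteoglycan perlecan, were lower in BAT of WT mice by smaller amounts, -0.65 (limma adjusted p = 0.031) and -1.09 (adjusted p = 0.0442). Canx failed the threshold in 4 of the 12 fits that left out an array, those without WT scWAT replicate 2 or any of the 3 WT BAT arrays (adjusted p up to 0.0892). Hspg2 failed in 10 of them (adjusted p up to 0.112), and passed when either WT scWAT replicate 3 or replicate 1 of Lr11 -/- scWAT was removed. Its difference was -0.63 without WT scWAT replicate 1. In Lr11 -/- mice 0 of the 27 genes were called between tissues, against 0.0405% of all probes. An unadjusted p under 0.05 was found for 3 of the 27, Pcsk6, Abcg1 and Apoc4, and for 2890 of the 32120 probes.

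**Figure D5:**
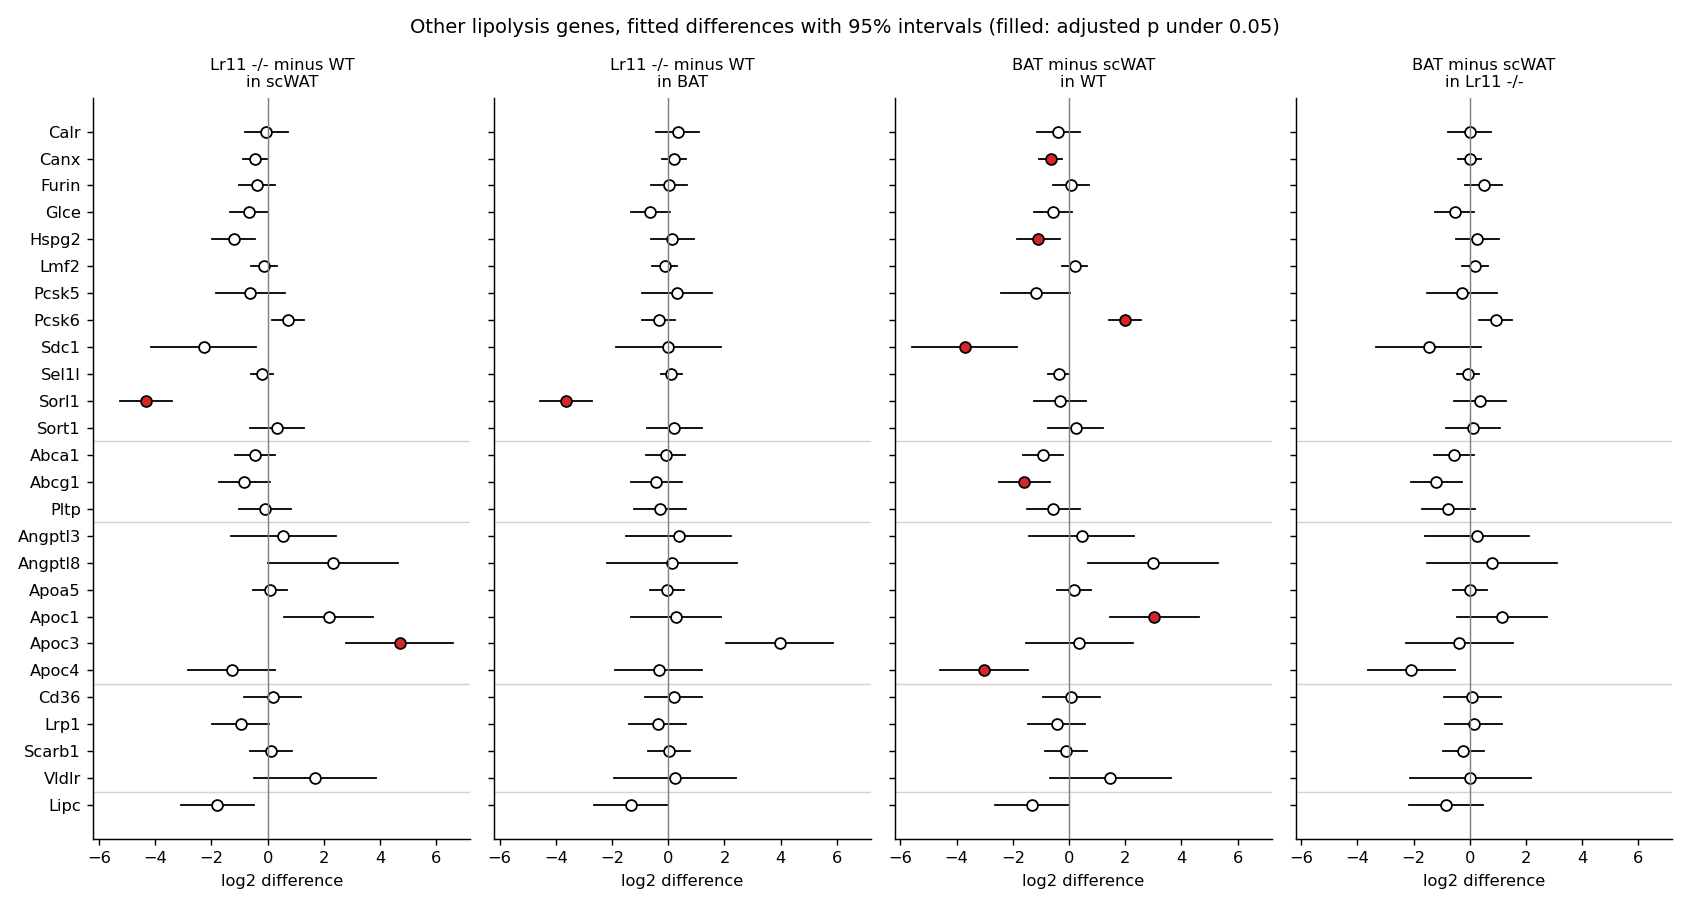
Fitted log2 difference with 95% interval of 26 of the 27 other lipolysis genes in 4 comparisons (limma, 12 arrays), grouped by role (from top to bottom folding, cleavage and sorting, lipid transfer, plasma activators and inhibitors, uptake receptors and related lipases), with filled points for adjusted p under 0.05. Apoc3 and Sorl1 stand farthest from 0 between genotypes in both tissues, and 7 genes are filled between the tissues of WT mice.

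The genes whose pattern over the 12 arrays lay nearest to each member were found from the root mean square difference of their centred log2 levels, as a description. For Lpl they were Emc9 (0.19), Cd1d1 (0.22) and 1700029I15Rik (0.24), next to a range of 2.73 for Lpl itself. Gpihbp1 was followed most closely by Timm22 (0.15), Ccnd3 (0.15) and Chp1 (0.16), and Angptl4 by Fam149a (0.22), Pdxk (0.23) and Nipsnap3b (0.25). For Lmf1 they were Klk10 (0.10), S100a13 (0.15) and Zadh2 (0.16), next to a range of 2.48 for Lmf1.

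For Apoe the nearest genes were Lrp1 (0.25), Pkd1 (0.27) and Bahd1 (0.28), next to a range of 1.93. Lrp1, an endocytic receptor for apolipoprotein E remnants, read 3.62, 5.35 and 3.78 on WT scWAT replicates 1 to 3 and 4.15, 2.77 and 2.97 on the Lr11 -/- scWAT arrays. In BAT it read 3.90, 3.73 and 3.82 in WT and 3.34, 3.38 and 3.60 in Lr11 -/- mice. Like Apoe, it was highest on WT scWAT replicate 2 and lowest on Lr11 -/- scWAT replicates 2 and 3.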

How the data were processed

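The authors deposited one-colour Agilent scanner files of intensity values made with Feature Extraction (version 10.10 per the labels, 10.10.1.1 per the file headers), background-subtracted and not normalized between arrays. The deposited table of the whole series held the same intensity values (largest difference 0). Groups came from the source labels, and replicate numbers are names in accession order.

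Of 62976 features per array, 59305 spots of 55681 probes were not controls. Outlier spots (128 to 181 per array) were left out, spots of a probe were averaged after log2, and the 75th percentile (intensities of 374 to 632) was subtracted. The software called 32377 to 37002 spots well above background on an array and 0 saturated. A probe was tested if it had that call on the 3 arrays of any group (32120 probes). RefSeq identifiers were matched to the GRCm38.p6 gene table, which gave a symbol to 27235 probes. The array follows another assembly, so no coordinates are given. A gene was read from its brightest tested probe, marker sums from the brightest probe of each marker.

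Differences came from a limma 3.58.1 fit (R 4.3.3, with the package data.table in version 1.17.8) of the 12 arrays with a mean per group, and p values were adjusted by Benjamini-Hochberg over all tested probes. The 28 missing values in tested probes were left out of the fit. The fit, but not the other steps, was tested on simulated arrays with known changes, and figures were drawn with matplotlib. Where a probe was dim in the lower group, each dim array was raised to the lowest signal well above background on it and the fold given as at least that large. The number of arrays limits the precision. Named were all probes of the 5 members, listed partners past the threshold (at most 10 in a genotype comparison, and 5 higher and 5 lower in a tissue comparison), the 3 nearest patterns per member and Sorl1. Naming Apoc3 in BAT, Apoa5, Lrp1 and partners with an unadjusted p was chosen after their values were seen. The members and lists were chosen with earlier results of these data known. Alternatives were other scalings, background correction and filters, outlier spots kept, array series or slide as a block, each series alone, array weights, trended and robust eBayes, the compared groups alone, the mean of a gene's probes and single arrays left out. One gene of the list of other lipolysis genes is counted but not reported here.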

Additional observations from a re-analysis of the deposited data

How the results depend on the processing

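With 3 arrays a group and a spread of up to 1.42 (SD, log2, Lpl in WT scWAT), the 95% interval of the Lpl difference there ran from -0.08 to 2.42. Over the settings tried, 128 of 139 member counts stayed within 1.5 times the value with all arrays. A count of 0 could stay so only by being 0 again. The count in scWAT between genotypes, 0, was 1 with array weights, 1 with normexp background correction, 1 without the 5 arrays with skeletal muscle markers (Lmf1 each time), 4 in the second array series alone and 0 to 3 with an array left out. The count for the genotype difference between tissues, 0, was 1 with array weights, 1 in the second series alone and 0 to 1 with an array left out. The count between tissues in WT, 1, was 3 in the second series and 1 to 3 with an array left out. In BAT between genotypes and between tissues in Lr11 -/- mice it was 0 under all settings run. The count among the 27 other lipolysis genes ran from 0 to 9 in scWAT between genotypes (2 with all arrays), 0 to 2 in BAT (1), 0 to 1 for the difference between tissues (0), 1 to 9 between tissues in WT (7) and 0 to 5 in Lr11 -/- mice (0). The share of all probes called ran over the same settings from 0% to 22.6%, 0% to 0.227%, 0% to 4.75%, 7.35% to 31.8% and 0% to 17% in those comparisons. The cause was not tested. The value table of the series gave the same values as the scanner files. Leaving out the muscle arrays was chosen after seeing the data. The setting without the muscle arrays leaves 1 WT BAT array, taken to vary like the other groups.

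No difference whose sign turned was called with all arrays. In the first array series alone, with 1 array per group and no test, Lpl between genotypes in scWAT was -1.08, Gpihbp1 -1.0, Angptl4 -1.49 and Apoe 0.44, and in BAT minus scWAT of WT Lpl was -1.24, Gpihbp1 -0.52 and Angptl4 -0.87, each opposite in sign to the value from all arrays. The genotype difference between tissues turned there for all 5 genes (Lpl -1.63, Gpihbp1 -1.11, Angptl4 -1.27, Lmf1 -0.47 and Apoe 1.0). In BAT minus scWAT of Lr11 -/- mice Lpl was 0.39, Angptl4 0.40 and Apoe -1.02 in that series, also opposite in sign. The second Lmf1 probe turned to -0.15 between genotypes in scWAT and to -0.29 in the genotype difference between tissues. The second Lpl probe turned in the same comparisons as the first. Angptl4 between genotypes in BAT was 0.0078 with median scaling, 0.041 in the second series, 0.026 with array weights, 0.033 without the muscle arrays and -0.23 to 0.20 with an array left out. Angptl4 in BAT minus scWAT of WT was -0.062 with quantile normalization, -0.071 with no scaling, -0.093 without the muscle arrays and -0.26 to 0.65 with an array left out. Gpihbp1 in BAT minus scWAT of Lr11 -/- mice was -0.016 with quantile normalization, -0.084 with no scaling, -0.23 in the second series, -0.22 with array weights, -0.23 without the muscle arrays and -0.26 to 0.20 with an array left out. Apoe in that comparison was -0.063 with no scaling and -0.22 to 0.49 with an array left out, and the second Lpl probe was 0.22 with the slide as a block. Without the muscle arrays Lmf1 between genotypes in BAT was -0.051 and its second probe -0.055. With an array left out Angptl4 ranged from -0.090 to 0.97 between genotypes in scWAT, from -0.047 to 1.01 in the genotype difference between tissues and from -0.76 to 0.13 between tissues in Lr11 -/- mice. Lpl in BAT minus scWAT of WT ranged from -0.13 to 1.24, and its second probe from -0.23 to 1.42 there and from -0.032 to 1.61 in the genotype difference between tissues. No paired analysis was possible because the labels carry no replicate numbers that pair the samples.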
